A study of Rattus norvegicus with 12 samples.

Results

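The genes described here set how many mitochondria a cell builds and how those mitochondria join and divide. They are 10 of the 17301 gene names in the RNA sequencing tables of adult rat ventricular myocytes (ARVMs), and were chosen by symbol: Ppargc1a, Ppargc1b, Nrf1, Gabpa, Tfam, Tfb2m, Mfn1, Mfn2, Opa1, and Dnm1l. Each is listed with 1 transcript, so that they take up 10 of 18752 transcript rows. ARVMs were isolated from the hearts of male Sprague Dawley rats and plated on laminin in a medium with serum and then kept in one with insulin, both with the contraction blocker butanedione monoxime. The control group was transduced with Ad-GFP, an adenovirus that makes enhanced green fluorescent protein. The other group received Ad-h-NR4A2, from which a CMV promoter, active in most cell types, expresses human NR4A2 (whole cDNA). Both groups thus carry an adenovirus, used at 50 MOI, and RNA was taken at 48 h. There are 6 Ad-GFP and 6 Ad-h-NR4A2 samples, numbered 24 to 29 in either group, from 6 separate experiments on cells of different rats. The values are FPKM, in which the fragments of a transcript are divided by its length and by the depth of the library.

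The transduced gene was checked first, by the row of rat Nr4a2. Human NR4A2 from the virus and the rat message of the cells cannot be told apart in that row. Nr4a2 had 0.626 to 1.40 FPKM in Ad-GFP samples and 445 to 592 FPKM in Ad-h-NR4A2 samples. Depth was 18.7 to 27.8 M fragments (M, 1e6) in Ad-GFP samples and 21.6 to 27.1 M in Ad-h-NR4A2 samples. The myocyte markers Myh6, Myh7, Tnnt2, Tnni3, Actn2, and Ryr2 summed to 16105 to 20778 FPKM in Ad-GFP samples and to 14680 to 17406 FPKM in Ad-h-NR4A2 samples. The defining markers of the labelled cell type were thus high in both groups. Of these 6 markers, 4 fell and 1 rose with Ad-h-NR4A2. The 8 fibroblast markers summed to 9.75 to 31.0 FPKM and 6.26 to 27.4 FPKM, the 6 endothelial markers to 6.95 to 21.4 FPKM and 5.90 to 20.7 FPKM, and the 4 smooth muscle markers to 7.07 to 20.3 FPKM and 6.86 to 16.5 FPKM, in the same order of groups. Of these markers, Col3a1 and Myh11 fell, and Col1a2 was listed at 0 in all samples. In a fit with a block by sample number (described below), some of these counts differed. There 5 myocyte markers fell and 1 rose, and 3 fibroblast, 1 endothelial, and 1 smooth muscle marker fell. The 5 leukocyte markers summed to 6.07 to 17.3 FPKM in Ad-GFP samples and 38.9 to 45.5 FPKM in Ad-h-NR4A2 samples. Of the 3 that were tested, 2 rose: Csf1r, which made up most of the sum, from a mean of 10.1 to 40.2 FPKM, and Cd14 from 0.222 to 1.19 FPKM. Cd68 had 0.463 and 0.482 FPKM. The pan-leukocyte gene Ptprc averaged 0.0258 and 0.0218 FPKM, and Cd163 averaged 0.0193 and 0.0232 FPKM. Ptprc is listed with 5 transcripts and Col1a2 with 2, and only the transcript with the highest mean is given. The levels of these genes are thus uncertain. Markers thus moved with the groups, and their part in the results below was not tested. In bulk RNA, fewer cells of a type and less RNA per cell cannot be told apart.

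In heart muscle, PGC-1α (Ppargc1a) and PGC-1β (Ppargc1b) are coactivators: they do not bind DNA themselves but raise transcription by nuclear receptors and by the nuclear respiratory factors NRF-1 (Nrf1) and GABP (Gabpa encodes its DNA-binding subunit). These factors drive nuclear genes of the respiratory chain as well as Tfam and Tfb2m, whose products enter mitochondria and start transcription of mitochondrial DNA. Mitochondria also fuse and divide. The mitofusins Mfn1 and Mfn2 join outer membranes, Opa1 joins inner membranes and shapes cristae, and Drp1, the product of Dnm1l, constricts mitochondria so that they divide. NR4A2 is itself a nuclear receptor that binds DNA as a monomer at the NBRE, a sequence that resembles the element of the estrogen-related receptors (ERR) that PGC-1 coactivates.

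Stretches of the promoters are shown for the members that the results contrast: the 2 coactivators, the fusion gene that fell, and 3 factors of the NRF and mitochondrial DNA tier. RefSeq promoter windows (build GRCr8, from 250 bases before to 50 after the start of the gene) were matched for 9 of the 10 genes, all but Mfn2. Each was searched on both strands for the NBRE AAAGGTCA, the ERR element TCAAGGTCA, which shares AAGGTCA with it, the NRF-1 core GCATGCGC, the ETS core CCGGAAG that GABP recognizes, and the cAMP response element TGACGTCA. Capitals mark a match, and positions count back from the start of the gene.
Ppargc1a, chr14:63634098-63634157, + strand, -210 to -151: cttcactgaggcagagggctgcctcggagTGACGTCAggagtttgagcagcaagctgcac
Ppargc1b, chr18:57131507-57131566, - strand, -100 to -41: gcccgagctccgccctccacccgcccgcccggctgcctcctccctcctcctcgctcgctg
Mfn1, chr2:117241698-117241757, + strand, -60 to -1: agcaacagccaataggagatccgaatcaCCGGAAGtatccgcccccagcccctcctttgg
Tfam, chr20:17355293-17355352, + strand, -80 to -21: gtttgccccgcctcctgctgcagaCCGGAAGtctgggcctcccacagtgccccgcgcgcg
Tfb2m, chr13:93828605-93828664, - strand, -70 to -11: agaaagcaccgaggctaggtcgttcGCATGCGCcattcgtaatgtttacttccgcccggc
Gabpa, chr11:37375154-37375213, + strand, -110 to -51: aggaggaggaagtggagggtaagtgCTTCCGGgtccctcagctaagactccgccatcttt

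These were the only matches in the 9 windows. The ETS core, in Mfn1, Tfam, and on the opposite strand Gabpa, occurs in 8.75% of all 33469 promoter windows of the same length, the NRF-1 core of Tfb2m in 2.47%, and the cAMP response element of Ppargc1a in 1.83%. The NBRE (1.43% of windows) and the ERR element (0.433%) were not among the letters of any of the 9 windows. These shares are over all windows, including those of genes not tested here, and can differ among expressed genes. A match is a description of the sequence and not a measured site.

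Of the 2 coactivators, Ppargc1b rose and Ppargc1a did not pass the test. Ppargc1b was the member with the largest change and the only one past a fold change of 1.5. The gene lies at chr18:55857448-55958697 of build Rn5. Its values in Ad-GFP samples 24 to 29 were 5.64, 4.46, 5.50, 6.83, 4.32, and 5.82 FPKM, and in the same-numbered Ad-h-NR4A2 samples 9.57, 8.48, 11.9, 11.9, 8.88, and 9.19 FPKM. Every Ad-h-NR4A2 sample lay above every Ad-GFP sample. Mean FPKM rose from 5.43 ± 0.932 (SD, n = 6) to 9.99 ± 1.53 (SD, n = 6), which is 1.84-fold, and the same-numbered pairs gave 1.58- to 2.16-fold. On the scale of log2(FPKM + 0.1), the fold change was 0.87 (SE 0.12, adjusted p = 8.43e-05, limma with Benjamini-Hochberg adjustment over 10950 genes). At most 519 fragments in an Ad-GFP sample and at least 618 in an Ad-h-NR4A2 sample lie behind these values.

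**Figure D1:**
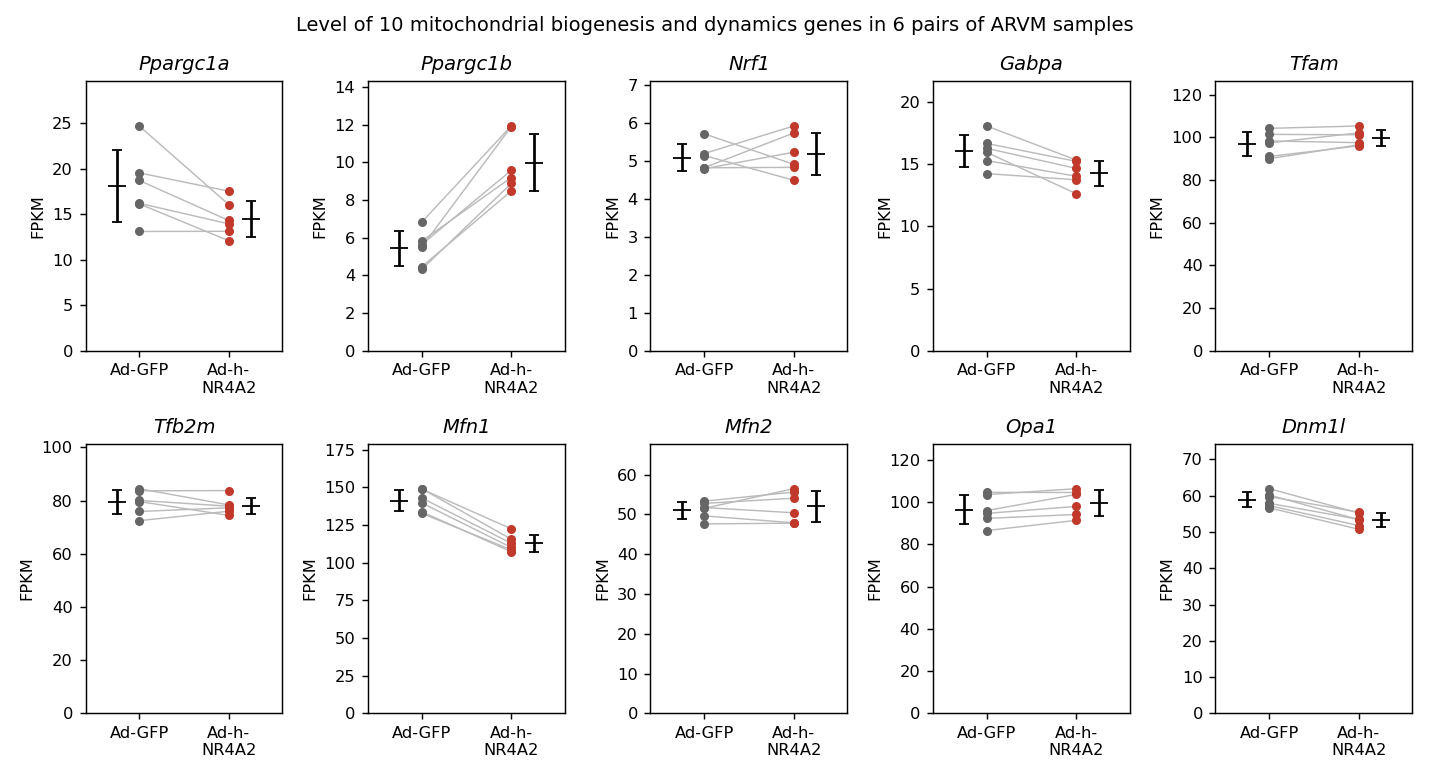
Level of each of the 10 genes in FPKM (y axis, from 0) in Ad-GFP (grey) and Ad-h-NR4A2 (red) samples. Dots are samples, lines join same-numbered samples, and bars beside them give the mean and SD of 6 samples. The groups do not overlap for Ppargc1b, Mfn1, and Dnm1l, and Gabpa was lower in all 6 pairs although its groups overlap.

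For Ppargc1a (Rn5 chr14:63195104-63286096), FPKM was 19.5, 18.7, 16.2, 24.7, 13.1, and 16.1 in Ad-GFP samples 24 to 29 and 17.5, 14.3, 13.9, 16.1, 13.1, and 12.1 in Ad-h-NR4A2 samples. The groups overlapped, and Ad-GFP sample 27 was the highest of all. The mean was 18.1 ± 3.96 (SD, n = 6) compared with 14.5 ± 1.98 (SD, n = 6), a ratio of 0.803, and the value was lower in 5 of 6 pairs, with a ratio of 1.00 in pair 28. The log2 fold change of -0.30 (SE 0.13) did not pass (adjusted p = 0.0914, limma). With a replicate block by sample number, which takes out the level of each pair, it did pass (SE 0.073, adjusted p = 0.00655, limma). It also passed when pair 28, the pair with no decrease, was left out (adjusted p = 0.0463, limma). Leaving out any of the other 5 pairs gave an adjusted p of 0.0945 to 0.202 (limma), and in all 2 of 15 alternatives called Ppargc1a. In terms of balance, PGC-1β transcript stood at 0.238 to 0.361 of PGC-1α transcript, per length, in Ad-GFP samples and at 0.546 to 0.853 in Ad-h-NR4A2 samples. By the transcript listed for each, Ppargc1b was thus below Ppargc1a in all 12 samples.

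Nrf1, which encodes NRF-1 and is not the stress-response gene of a similar name, was the least abundant member (Rn5 chr4:57098398-57198686). It had 4.79, 4.97, and 5.70 FPKM (lowest, median, and highest) in Ad-GFP samples and 4.48, 5.06, and 5.91 FPKM in Ad-h-NR4A2 samples. The groups overlapped, with 4 of 6 pairs higher. Its log2 fold change was 0.025 (SE 0.082, adjusted p = 0.833, limma), and the 95% interval of the fold change ran from 0.901 to 1.15. These values come from 154 to 246 fragments per sample, the fewest of any member.

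Gabpa (Rn5 chr11:27864652-27950063) had 16.7, 15.9, 15.3, 16.3, 18.1, and 14.2 FPKM in Ad-GFP samples 24 to 29 and 15.2, 12.6, 14.0, 14.7, 15.3, and 13.7 FPKM in Ad-h-NR4A2 samples. Each Ad-h-NR4A2 sample was below its own Ad-GFP partner, by a pair ratio of 0.792 to 0.965, but the ranges of the groups overlapped. Mean FPKM was 16.1 ± 1.29 (SD, n = 6) and 14.3 ± 1.02 (SD, n = 6). The log2 fold change of -0.17 (SE 0.066) was just short of the limit (adjusted p = 0.0537, limma). It passed with the replicate block (adjusted p = 0.00761, limma), when pair 29 was left out (adjusted p = 0.0473, limma), and when only genes with a mean of at least 1 FPKM were tested (adjusted p = 0.0465, limma), which makes 3 of 15 alternatives. Leaving out any of the other 5 pairs gave an adjusted p of 0.0753 to 0.154 (limma). Gabpb1 and Gabpb1l, symbols of the β subunit with which GABPα pairs, did not pass either (adjusted p = 0.253 and 0.670, limma).

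The factors of mitochondrial DNA transcription were abundant, and neither passed the test. Tfam (Rn5 chr20:20760402-20772301), which packages mitochondrial DNA and bends its promoters, had 89.9, 97.8, and 104 FPKM (lowest, median, and highest) in Ad-GFP samples and 96.0, 99.3, and 105 FPKM in Ad-h-NR4A2 samples. Its log2 fold change was 0.041 (SE 0.043, adjusted p = 0.485, limma), with a 95% interval of the fold change from 0.964 to 1.10. Tfb2m (Rn5 chr13:102830291-102848026), the partner of the mitochondrial RNA polymerase in opening promoters, had 72.5, 79.9, and 84.5 FPKM in Ad-GFP samples and 74.4, 77.6, and 83.8 FPKM in Ad-h-NR4A2 samples. Its log2 fold change was -0.025 (SE 0.045, adjusted p = 0.692, limma), with a 95% interval from 0.920 to 1.05. For both genes, a change as large as that of Ppargc1b lies outside the interval. No transcript of the mitochondrial genome itself is among the rows, so that the output of these factors was not analysed here.

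Of the fusion genes, Mfn1 fell and the others did not pass the test. Mfn1 (Rn5 chr2:138586943-138627280) was the most abundant of all members, at 149, 143, 134, 149, 140, and 133 FPKM in Ad-GFP samples 24 to 29, and 122, 113, 107, 116, 110, and 108 FPKM in Ad-h-NR4A2 samples. The highest Ad-h-NR4A2 value was below the lowest Ad-GFP value. Mean FPKM fell from 141 ± 7.10 (SD, n = 6) to 113 ± 5.59 (SD, n = 6), a ratio of 0.799. The ratio was nearly the same in every pair, from 0.775 to 0.823. On the log2 scale it fell by 0.32 (SE 0.044, adjusted p = 5.64e-05, limma), from 4842 to 7393 fragments per sample.

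Mfn2 (Rn5 chr5:168342971-168372608), the mitofusin that also tethers mitochondria to the endoplasmic reticulum, had 47.6, 51.6, and 53.3 FPKM (lowest, median, and highest) in Ad-GFP samples and 47.8, 52.2, and 56.5 FPKM in Ad-h-NR4A2 samples. The log2 difference was 0.024 (SE 0.051, adjusted p = 0.742, limma), with a 95% interval of the fold change from 0.941 to 1.10. That interval does not reach the ratio of 0.799 seen for Mfn1. Opa1 (Rn5 chr11:77764459-77840531) had 86.5, 95.3, and 105 FPKM in Ad-GFP samples and 91.4, 101, and 106 FPKM in Ad-h-NR4A2 samples. Its log2 fold change was 0.051 (SE 0.055, adjusted p = 0.494, limma, and 0.0902 with the replicate block), with 5 of 6 pairs higher and a 95% interval from 0.955 to 1.12.

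Dnm1l, the fission gene, fell by a small amount that was much the same in each pair (Rn5 chr11:91885295-91934505). It had 57.9, 60.2, 57.3, 61.9, 56.7, and 59.8 FPKM in Ad-GFP samples 24 to 29 and 53.5, 53.4, 51.8, 55.2, 50.8, and 55.5 FPKM in Ad-h-NR4A2 samples. The groups did not overlap, although the lowest Ad-GFP and the highest Ad-h-NR4A2 sample were close. Mean FPKM fell from 59.0 ± 2.02 (SD, n = 6) to 53.4 ± 1.86 (SD, n = 6), a ratio of 0.905, with pair ratios of 0.887 to 0.928. On the log2 scale this is -0.14 (SE 0.037, adjusted p = 0.00668, limma). The 1 transcript listed for Dnm1l stands for a gene with 22 RefSeq transcripts in GRCr8, and that of Ppargc1a for one with 11, so that shifts between isoforms were not analysed here.

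**Figure D2:**
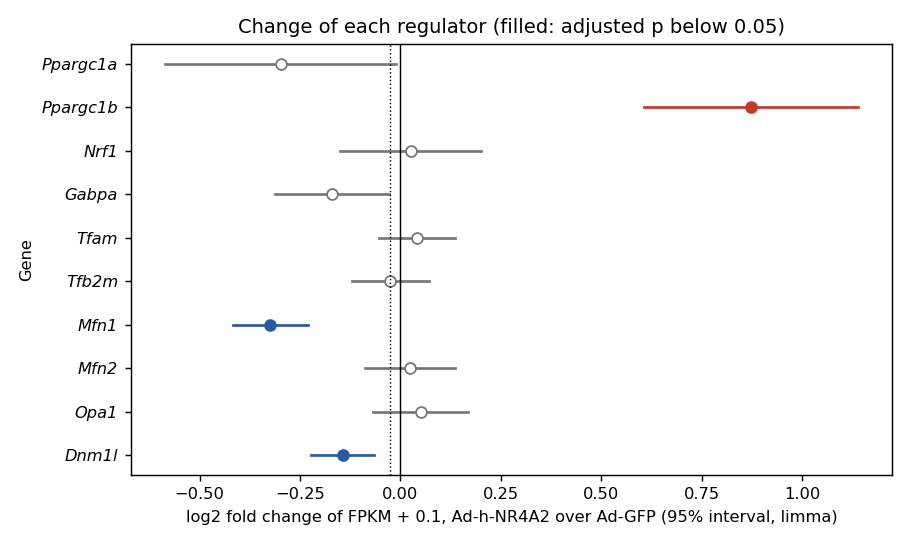
Log2 fold change of FPKM + 0.1 (x axis) for each gene with its 95% interval from limma, 6 samples per group. Filled points passed an adjusted p of 0.05 (red higher, blue lower), and the dotted line is the median of all genes tested. Ppargc1b stands at 0.87 to the right, Mfn1 at -0.32 and Dnm1l at -0.14 to the left, and the intervals of Tfam, Tfb2m, Mfn2, Opa1, and Nrf1 include 0.

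All 10 members were above 0 in every sample and were tested. In all, 3 of 10 passed, 1 higher and 2 lower. Among all genes tested, 40.9% passed, 19.3% higher and 21.7% lower. The share of members that passed was thus not above that of genes at large. With the replicate block, 5 of 10 members passed, 1 higher and 4 lower, compared with 59.4% of all genes (27.1% higher and 32.3% lower). With the fold-change limit of 1.5, 1 member remained, and 15.2% of all genes passed (7.94% higher and 7.24% lower). The median log2 fold change was -0.00042 over the members and -0.025 over all genes. Groups did not overlap for 3 members, and for 21.5% of all genes. All 6 pairs moved in the same direction for 4 members, and for 53.2% of all genes. An exact permutation test of the group labels (two-sided) was run for each member. This test treats samples as unpaired, although same-numbered samples deviated together from their group means. Groups that do not overlap give its smallest p by construction, so that this p adds nothing to the lack of overlap. For Ppargc1b, Mfn1, and Dnm1l it gave p = 0.00216, the smallest it can give, for Gabpa p = 0.0216, and for Ppargc1a p = 0.0671 (exact permutation tests, not adjusted).

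FPKM is per length, so that the listed transcripts can be ranked between genes. Each gene is read from 1 listed transcript, whereas GRCr8 has 11 RefSeq transcripts for Ppargc1a, 13 for Nrf1, and 22 for Dnm1l. The ranks may thus not hold for all transcripts of a gene. In Ad-GFP samples, the order from the top was Mfn1, Tfam, Opa1, Tfb2m, Dnm1l, Mfn2, Ppargc1a, Gabpa, Ppargc1b, and Nrf1. Neighbors in this order did not overlap, apart from Tfam with Opa1, Ppargc1a with Gabpa, and Ppargc1b with Nrf1. Tfam exceeded Opa1 in 3 of 6 samples of each group, and Ppargc1b exceeded Nrf1 in 3 of 6. The same order held in Ad-h-NR4A2 samples, but the gaps did not. Ppargc1b no longer overlapped Nrf1, Dnm1l now overlapped Mfn2 and exceeded it in 4 of 6 samples, and Ppargc1a exceeded Gabpa in 3 of 6.

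Ratios of these genes within a sample show how their balance moved, here as a description. Mfn1 over Mfn2 was 2.70 to 2.82 in Ad-GFP samples and 1.95 to 2.27 in Ad-h-NR4A2 samples. Mfn1 over Opa1 was 1.35 to 1.57 and 1.03 to 1.19. Mfn1 over Dnm1l was 2.22 to 2.57 and 1.96 to 2.29, lower in all 6 pairs although these ranges overlap. Opa1 over Dnm1l had a median of 1.63 and 1.88, and Mfn2 over Dnm1l had a median of 0.863 and 0.961. Both ratios were higher with Ad-h-NR4A2 in all 6 pairs although the ranges overlap. Mfn1 and Dnm1l fell and Mfn2 and Opa1 did not pass the test, as given above. These ratios largely restate those values and are not separate results.

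**Figure D3:**
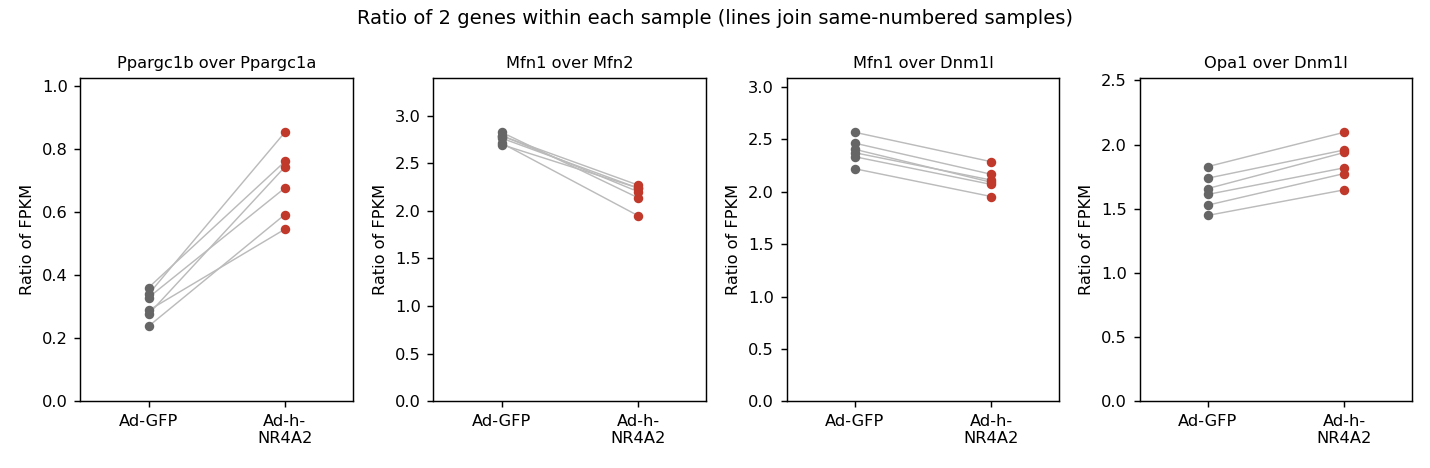
Ratio of the FPKM of 2 genes within each sample (y axis, from 0), in Ad-GFP (grey) and Ad-h-NR4A2 (red) samples, with lines joining same-numbered samples. The ranges of the groups separate for Ppargc1b over Ppargc1a and for Mfn1 over Mfn2, and overlap for Mfn1 over Dnm1l and Opa1 over Dnm1l.

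How members varied together beyond the group difference was described by correlation, with no test. After the group mean was subtracted from log2(FPKM + 0.1), Pearson's r over the 12 samples was 0.75 for Ppargc1a with Mfn1, 0.75 for Tfb2m with Opa1, 0.73 for Mfn1 with Mfn2, and 0.70 for Gabpa with Mfn2. The lowest was -0.63, for Ppargc1b with Opa1. The 12 samples are 6 same-numbered pairs, so that they are not 12 independent points. Of 8977 other genes with a mean of at least 1 FPKM, those most like Ppargc1a by the same measure were Wwp1 (r = 0.94), Tceal1 (0.94), Gstcd (0.93), Mitf (0.92), and Ctnnal1 (0.91). Their differences between the groups ran both ways, with log2 fold changes of 0.30 for Wwp1, 0.20 for Tceal1, and 0.08 for Ctnnal1, and of -0.39 for Gstcd and -0.35 for Mitf.

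Around these members, other genes of the pathway were counted in lists set by function, as a description. The lists were chosen with earlier results of these data known. The shares of all tested genes to read these counts against are 40.9% (19.3% higher and 21.7% lower), and 59.4% with the replicate block. Of 28 PGC-1 partners and upstream regulators, 4 rose, 11 fell, and 13 did not pass, with a median log2 fold change of -0.11. With the replicate block, 7 rose and 13 fell. Nrip1, a corepressor that opposes PGC-1 at nuclear receptors, rose from 5.96 ± 0.321 (SD, n = 6) to 18.4 ± 1.67 FPKM (log2 fold change 1.61, SE 0.067). Perm1, a muscle gene that PGC-1 and ERR induce, rose from 61.9 ± 17.3 to 180 ± 30.0 FPKM (1.57, SE 0.16). Foxo1 rose less (0.43, SE 0.081). Esrrg, which encodes ERRγ, fell from 22.3 ± 1.63 to 11.6 ± 3.01 FPKM (-0.97, SE 0.13). Prkaa2, the catalytic α2 subunit of AMP-activated kinase, fell from 119 ± 5.55 to 78.3 ± 7.96 FPKM (-0.60, SE 0.062), and Ppara, the receptor that drives fatty acid oxidation genes, from 15.1 ± 1.31 to 10.2 ± 1.79 FPKM (-0.58, SE 0.11). The groups did not overlap for any of these 6 genes, and the highest adjusted p was 7.78e-04 (Foxo1, limma). These genes were picked as the largest changes among called genes, so that both statements largely follow from the choice. Among all genes tested, groups did not overlap for 21.5%. The other ERR genes, picked for mention after their values were seen, did not pass. Esrra had a mean of 116 FPKM in Ad-GFP and 121 FPKM in Ad-h-NR4A2 samples (adjusted p = 0.444, limma, and 0.0402 with the replicate block). Esrrb had 6.32 and 5.99 FPKM (adjusted p = 0.434, limma).

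**Figure D4:**
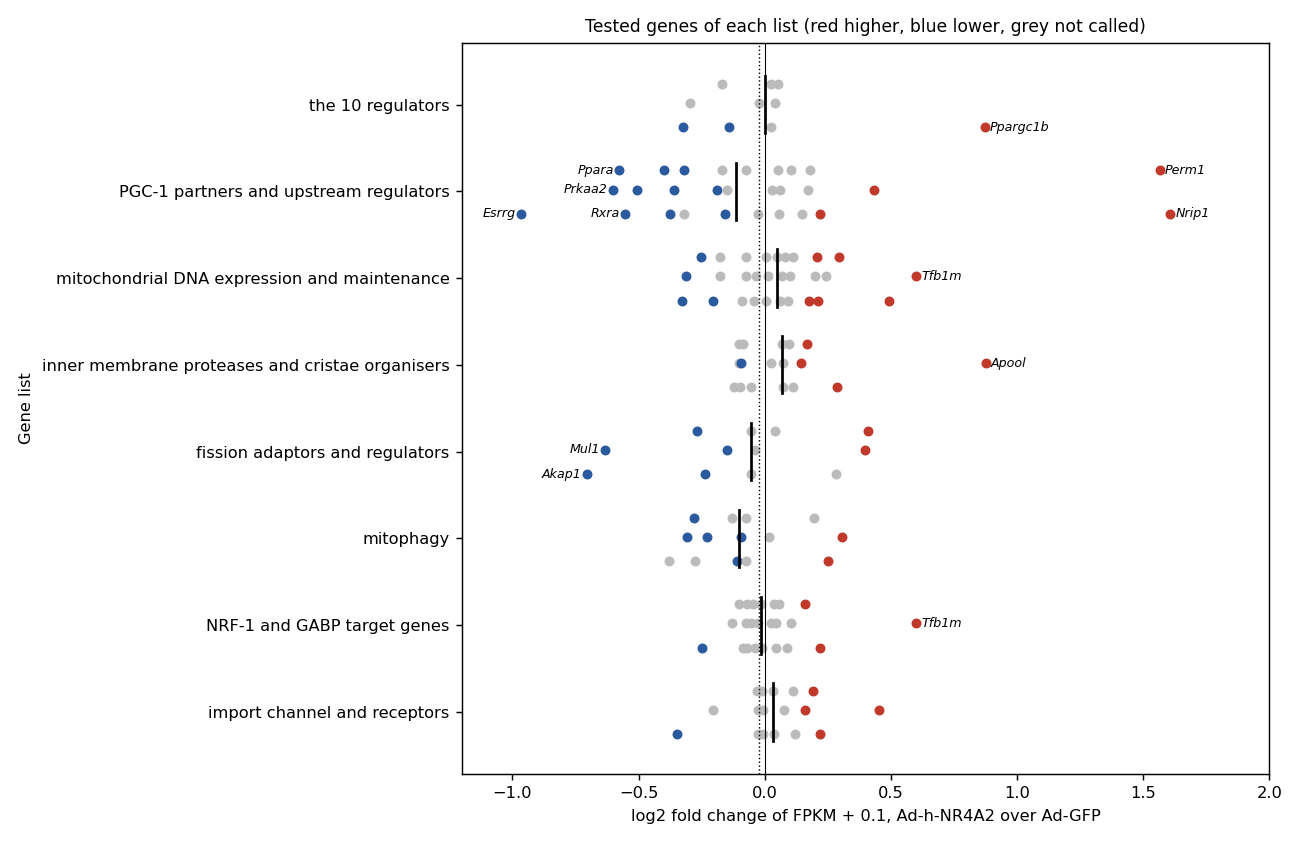
Log2 fold change of FPKM + 0.1 (x axis) of every tested gene of the 10 regulators and of 7 pathway lists (y axis; height within a list has no meaning). Red and blue points passed an adjusted p of 0.05, grey points did not, black bars are list medians, and the dotted line is the median of all genes. Perm1, Nrip1, Apool, and Ppargc1b lie farthest to the right and Esrrg farthest to the left.

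Of 29 genes that express and maintain mitochondrial DNA, 6 rose, 4 fell, and 19 did not pass, with a median log2 fold change of 0.048. Tfb1m, a relative of Tfb2m that methylates mitochondrial ribosomal RNA, rose from 15.5 ± 1.20 (SD, n = 6) to 23.5 ± 1.74 FPKM (log2 fold change 0.60, SE 0.065, adjusted p = 7.52e-06, limma), and its groups did not overlap. Mterfd2 (0.49, SE 0.077) and Mterfd3 (0.29, SE 0.11) of the termination factor family also rose. The family did not move as a whole, since Mterf fell (-0.21, SE 0.072) and Mterfd1 did not pass (adjusted p = 0.780, limma). Fastkd1, which binds mitochondrial RNA, fell (-0.33, SE 0.12), as did Rrm2b, a ribonucleotide reductase subunit (-0.31, SE 0.067), and Ptcd1 (-0.25, SE 0.073). The polymerase genes Polrmt and Polg were not called (adjusted p = 0.573 and 0.558, limma), and were picked for mention after their values were seen. The number of genes that passed, 10, was 16 with the replicate block, 5 without pair 26 or pair 29, and 6 without pair 25 or pair 27. Without pair 26, Mterfd3 (adjusted p = 0.121) and Fastkd1 (adjusted p = 0.102, limma) did not pass.

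Of 17 inner membrane proteases and cristae organizers, 4 rose, 1 fell, and 12 did not pass (11 passed with the replicate block). Apool, a subunit of the cristae-organizing complex, rose from 84.6 ± 6.51 (SD, n = 6) to 155 ± 6.47 FPKM (log2 fold change 0.88, SE 0.052, adjusted p = 3.27e-08, limma). Oma1, a protease that cleaves Opa1, rose from 14.9 ± 0.549 to 18.2 ± 1.56 FPKM (0.28, SE 0.059), and the prohibitin Phb2 by a log2 of 0.17 (SE 0.034). Minos1, another subunit of that complex, fell by 0.096 (SE 0.036), a call lost when any 1 pair was left out. Yme1l1, the other protease of Opa1, is listed at 2 loci, with a mean of 0.119 FPKM in Ad-GFP samples at the higher one, so that its level is uncertain.

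Of 12 tested genes that recruit or modify Drp1 or otherwise act in fission, 2 rose, 5 fell, and 5 did not pass. Akap1, which anchors protein kinase A at the outer membrane, fell from 148 ± 17.0 (SD, n = 6) to 91.5 ± 17.1 FPKM (log2 fold change -0.71, SE 0.12), and Mul1, a ligase of the outer membrane, from 17.2 ± 1.47 to 11.1 ± 1.76 FPKM (-0.63, SE 0.094). Sh3glb1 fell by 0.27 (SE 0.065) on the log2 scale. Mief1, an adaptor that binds Drp1 at the outer membrane, rose from 15.8 ± 1.78 to 21.1 ± 3.18 FPKM (0.41, SE 0.10), and the phosphatase Pgam5 from 29.7 ± 1.45 to 39.3 ± 2.96 FPKM (0.40, SE 0.054). The highest adjusted p of these was 0.00603 (Mief1, limma). Mff, the other main adaptor, is also listed at 2 loci, with a mean of 0.0315 FPKM in Ad-GFP samples for its highest transcript, and was not tested.

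Of 14 mitophagy genes, 2 rose, 5 fell, and 7 did not pass, with a median log2 fold change of -0.10 (11 passed with the replicate block, 4 without pair 26). Tbk1, a kinase of mitophagy receptors, rose (0.31, SE 0.058), as did Bnip3l (0.25, SE 0.046), whereas the receptors Fundc1 (-0.31, SE 0.045), Bnip3 (-0.28, SE 0.095), and Bcl2l13 (-0.23, SE 0.052) fell. Bnip3 did not pass when pair 24, 25, 26, or 28 was left out, with an adjusted p of up to 0.0938 (limma).

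Of 23 tested target genes of NRF-1 and GABP, 3 rose, 1 fell, and 19 did not pass, with a median log2 fold change of -0.014 and a range of -0.25 to 0.60 (10 passed with the replicate block). Both counts are a smaller share than the 40.9% and 59.4% of all genes. The risers were Tfb1m and the import receptors Tomm20, from 255 ± 8.86 (SD, n = 6) to 297 ± 11.9 FPKM (0.22, SE 0.037), and Tomm70a (0.16, SE 0.045). Alas1, the first enzyme of heme synthesis, fell by 0.25 (SE 0.064) on the log2 scale. Of 17 tested genes of protein import, which include both receptors, 4 rose, 1 fell, and 12 did not pass (9 passed with the replicate block). Timm23, the channel of the inner membrane, rose from 224 ± 7.80 to 307 ± 14.6 FPKM (0.45, SE 0.039, adjusted p = 1.01e-06, limma), and Timm44, which ties the import motor to it, by 0.19 (SE 0.045). Chchd4, which folds proteins in the intermembrane space, fell by 0.35 (SE 0.079). Tomm70a did not pass without pair 27 (adjusted p = 0.0579, limma).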

How the data were processed

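The FPKM values deposited by the authors come from stranded mRNA libraries of 12 ARVM samples. The authors aligned paired-end reads to Rn5 with STAR and quantified RefSeq transcripts with Cufflinks. The confidence limits deposited with them equal FPKM in all but 8 of 225024 values and were not used. Depth was read from low FPKM, which are whole multiples of 1 fragment for transcripts of at least 800 nucleotides (99.4% to 99.9% of values of up to 6 fragments within 0.05). It bears on counting error only.

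Members and lists were chosen with earlier results of these data known. Each gene is its transcript with the highest mean FPKM. The 10950 genes above 0 in all samples were compared on log2(FPKM + 0.1), which understates changes of low genes, with limma 3.58.1 (trend) in R 4.3.3, two-sided, with Benjamini-Hochberg adjustment and without a block. A call is an adjusted p below 0.05. The study compared groups unpaired. Same-numbered samples deviated together from their group means (r = 0.347 to 0.623 in the 6 pairs), and no label says what the numbers mark. The pairing thus comes from the data. For each Ad-GFP sample, the highest r with a differently numbered Ad-h-NR4A2 sample was lower, at 0.0162 to 0.189. The fit with a replicate block is given where it changes the call of a member or the count of a list. In simulated data with 10950 genes, 76 of 100 genes changed by a log2 of 0.5 and 99 of 100 changed by 1.5 were called, as were 9 of 10750 unchanged genes. Only 200 genes were changed there, all with a mean of at least 1 FPKM, and no pair effect was drawn. In the real data 40.9% of genes passed, so that these rates do not measure the sensitivity of the real comparison.

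Named are the members, Nr4a2, up to 3 risen and 3 fallen genes per list with the largest log2 fold changes among called genes with a mean of at least 1 FPKM, and the 5 genes most like Ppargc1a. Alternatives were pseudocounts of 1 and 0.01, no filter or a mean of at least 1 FPKM, quantile normalization, rescaling to TPM, no variance trend, summed transcripts, and each pair left out. Promoter sequences are from RefSeq (GRCr8). Other software was Python 3.11.15, Matplotlib 3.10.9, NumPy 2.4.6, and pandas 2.3.3.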

Additional observations from a re-analysis of the deposited data

Results flagged for a closer look

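Single samples were compared with the other 5 of their group for the members and the named pathway genes, 84 groups of 6 in all, by the gap to the nearest sample as a share of the whole range. In 5 groups this share exceeded Dixon's 95% critical value, and chance alone flags about 1 in 20 groups. No member was among them. Perm1 had 94.1 FPKM in Ad-GFP sample 24, compared with a group median of 59.0. In Ad-h-NR4A2 sample 24, Fastkd1 had 12.0 FPKM (median 8.48) and Ptcd1 had 15.8 FPKM (median 13.7). Fundc1 had 33.3 FPKM in Ad-h-NR4A2 sample 28, below the median of 37.5, and Bcl2l13 had 39.4 FPKM in Ad-GFP sample 27, above the median of 35.0.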

How the results depend on the processing

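The calls of Ppargc1b, Mfn1, and Dnm1l held in direction and at an adjusted p below 0.05 under all 15 alternatives, with log2 fold changes of 0.78 to 0.92, -0.37 to -0.31, and -0.16 to -0.14. The number of members that passed, 3, was 5 with the replicate block, both per gene and per transcript row, and 3 to 4 with each pair left out. With the replicate block, list counts were 16 for mitochondrial DNA expression (10 without), 11 for cristae organizers (5), 11 for mitophagy (7), 10 for NRF-1 and GABP targets (4), and 9 for import (5). With each pair left out they were 5 to 9 for mitochondrial DNA expression and 4 to 6 for mitophagy. Of the 7 members that were not called, all but Nrf1 and Tfam kept their direction in the 15 alternatives. Nrf1 had a log2 fold change of -0.019 without pair 24 and -0.0068 without pair 29 (up to 0.073 with other pairs left out), and Tfam had -0.0032 after quantile normalization. The cause was not tested. Of 480 values of named pathway genes under alternatives, 455 kept direction and call and 25 lost the call. The TPM scale moved the median of all genes from -0.025 to -0.043. Depth limits Nrf1 most, at 154 to 246 fragments.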

Other observations

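Across all promoter windows, tested genes were grouped by the motifs searched above, as a description with no test. Of 1513 tested genes with the ETS core, 21.8% rose and 13.7% fell with Ad-h-NR4A2, with a median log2 fold change of 0.026, whereas among all tested genes 19.3% rose and 21.7% fell. Of 433 genes with the NRF-1 core, 19.2% rose and 19.9% fell (median -0.0052). Of 85 genes with the NBRE, the element of NR4A2, 25.9% rose and 18.8% fell (median 0.0049). For the ERR element, which resembles it, these shares were 27.8% and 22.2% of 18 genes (median -0.011), and for the cAMP response element 19.1% and 17% of 277 genes (median 0.027). The windows hold 300 bases each, so that sites farther away were not searched.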
